A study of Mus musculus with 12 samples.

Results

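The 10 genes of the growth hormone (GH) and insulin-like growth factor 1 (IGF-1) axis described here are Ghr, Stat5a, Stat5b, Cish, Socs2, Igf1, Igfals, Igfbp1, Igfbp2 and Igfbp4. They were taken by gene symbol, and all 10 were among the 17432 genes of the liver RNA-Seq table and among the 12344 that had enough counts to test. The livers came from male wild-type C57BL/6J mice, 8 to 10 weeks old, all of which had 3 days of daytime feeding to synchronise their meals. After a morning meal the food was taken away, and 6 mice ran on a treadmill at 14 m/min for 3 hours (Exercise) while 6 stayed at rest without food (Sedentary). All livers were collected at the same time, so the comparison asks what a bout of moderate running after a meal changes in the liver.

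GH released by the pituitary binds its receptor on hepatocytes and activates the kinase JAK2, which phosphorylates STAT5a and STAT5b. The STAT5 proteins then enter the nucleus and switch on Igf1, Igfals and the feedback inhibitors Cish and Socs2. IGF-1 leaves the liver and circulates in complexes with IGF-binding proteins and the acid-labile subunit encoded by Igfals. The binding protein encoded by Igfbp1 is set apart in its family by fast control at the level of transcription, since insulin represses the gene through FOXO factors.

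Levels are CPM (counts relative to library size) scaled by TMM factors, and a change was called where the Benjamini-Hochberg adjusted p of edgeR's quasi-likelihood test over all 12344 genes was under 0.05. Every library held 18745379 to 19324461 counts. Counting error was under the spread between livers for each of the 10 genes but Stat5a, whose sedentary counts had an SD of 12 where counting alone gives 14.4. The p-values measure the spread between these livers alone. Hepatocyte markers were abundant in every liver (8 markers summing to 116821 to 155913 CPM in the sedentary and 144608 to 165545 CPM in the exercised livers). Among the exercised livers, replicate 3 lay far from the other 5 in 2.31% of 11537 genes, against 0.303% to 1.13% for each other liver. Exercise replicate 1 held 106 counts of the cardiac myosin gene Myh6, like the sedentary livers (85 to 212 counts), where the other 5 exercised livers had 0. The calls were therefore repeated without Exercise replicates 1 and 3.

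In GENCODE (mm10, whole gene, strand in parentheses) the signaling genes are Ghr at chr15:3317760-3583492 (minus), Stat5a at chr11:100859351-100885169 (plus), Stat5b at chr11:100780731-100850724 (minus), Cish at chr9:107296026-107302784 (plus) and Socs2 at chr10:95385362-95417180 (minus). The secreted proteins are encoded by Igf1 at chr10:87858265-87937042 (plus), Igfals at chr17:24865997-24882010 (plus), Igfbp1 at chr11:7197782-7202546 (plus), Igfbp2 at chr1:72824503-72852474 (plus) and Igfbp4 at chr11:99041244-99054392 (plus). Antisense genes lie over parts of Cish and Igf1 (Igf1os), whose reads cannot be told apart without strand.

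Stretches at the starts of Cish, Igfals and Igfbp1, the called genes with the largest log2 fold changes, are shown first. RefSeq (GRCm38.p6) gave 15 start sites for 9 of the 10 genes, and Socs2 had no entry. Each stretch of 300 bases, 250 before and 50 after the start, was searched on both strands for the STAT5 element TTCNNNGAA, the FOXO insulin response core CAAAACA and the related forkhead core GTAAACA. The lines below read 5′ to 3′ on the plus strand, in lower case with the matches in capitals.

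Igfbp1, chr11:7197537-7197786, GRCm38.p6, 250 bases before the start:
Igfbp1: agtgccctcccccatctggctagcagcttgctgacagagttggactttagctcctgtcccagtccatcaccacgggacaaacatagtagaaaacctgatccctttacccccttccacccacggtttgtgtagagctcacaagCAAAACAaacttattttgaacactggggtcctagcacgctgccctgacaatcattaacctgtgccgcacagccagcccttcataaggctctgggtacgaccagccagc
Igfals, chr17:24877981-24878230, GRCm38.p6, 250 bases before the second of its listed starts:
Igfals: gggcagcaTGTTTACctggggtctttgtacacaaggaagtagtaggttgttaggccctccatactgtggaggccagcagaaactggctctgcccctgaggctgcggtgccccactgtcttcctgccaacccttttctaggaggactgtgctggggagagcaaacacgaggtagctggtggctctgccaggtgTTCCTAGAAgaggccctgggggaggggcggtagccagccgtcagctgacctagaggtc
Cish, chr9:107296657-107296680, GRCm38.p6, 24 bases from 2 before the RefSeq start onward, in exon 1 of a longer GENCODE transcript:
Cish: ttTTCCTGGAAagTTCTTGGAAat

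The Igfbp1 stretch holds 1 FOXO core, 108 bases before the start, and no STAT5 element. The Igfals stretch holds a STAT5 element 58 bases before the start and a forkhead core at 242 bases. Another Igfals start has a STAT5 element 236 bases in front of it. Cish has a pair of STAT5 elements at positions 1 and 12 after the start. Over all 32851 RefSeq stretches of the same length, 8.30% held the STAT5 element, 6.28% the FOXO core and 3.65% the forkhead core. None of the 3 motifs was found in the stretches of Ghr, Stat5a, Stat5b, Igf1, Igfbp2 or Igfbp4, which says only that these letters are not in those windows.

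Exercise raised 3 of the 10 genes (Igfbp1, Stat5b and Igfbp4), lowered 5 (Cish, Igfals, Stat5a, Igfbp2 and Ghr), and left Socs2 and Igf1 without a call. The share of all genes called was 42.4%, with 21.1% higher and 21.3% lower, so 8 calls among 10 genes are to be read against a liver in which many genes moved. In 5 of the 10 (Ghr, Stat5a, Cish, Igfals and Igfbp1) the sedentary and exercised livers did not overlap, against 22.3% of all genes. The median log2 fold change was -0.27 over the 10 genes and -0.0028 over all genes tested. Without Exercise replicates 1 and 3, 6 of the 10 genes were called, 1 higher and 5 lower. Over the 12518 genes tested in that run, 2283 were higher and 2231 lower.

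**Figure D1:**
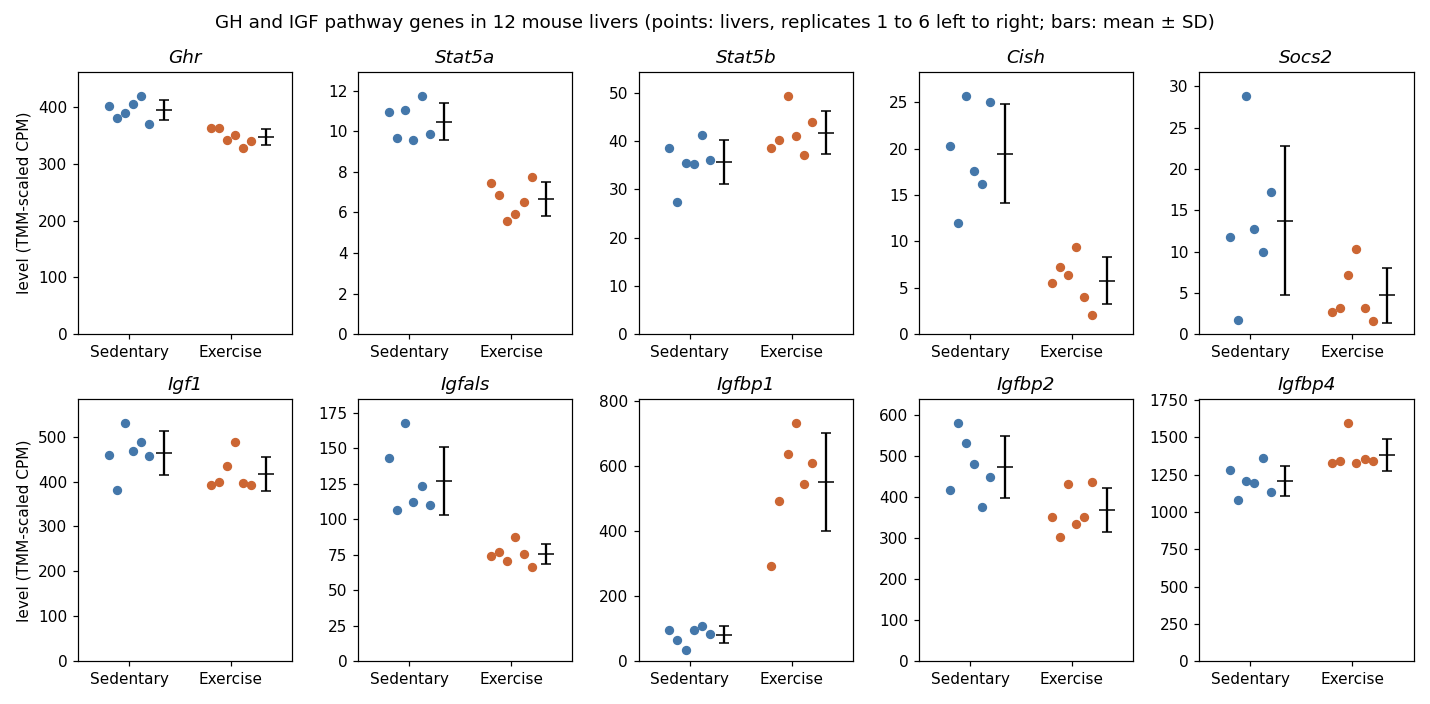
Level of each gene (TMM-scaled CPM, axis from 0) in the 6 sedentary (blue) and 6 exercised (orange) livers, 1 point per liver, with the mean and SD as a black bar beside each group. The groups are separate for Ghr, Stat5a, Cish, Igfals and Igfbp1 and overlap for the other 5 genes.

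**Figure D2:**
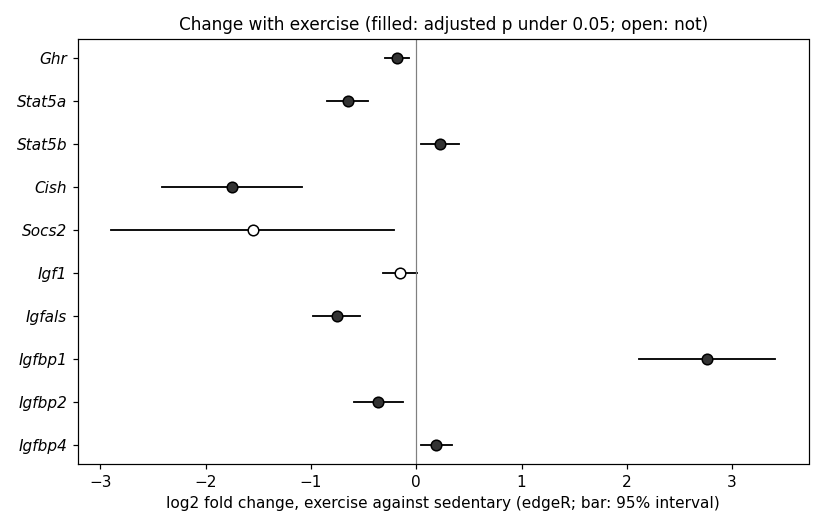
Log2 fold change of each gene, exercise against sedentary, from edgeR, with the 95% interval as a bar. Filled points passed an adjusted p of 0.05 over all genes and open points (Socs2 and Igf1) did not; Igfbp1 lies at 2.76 and Cish at -1.75.

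Ghr encodes the GH receptor, and its level by counts was slightly lower after exercise in every liver. The sedentary livers ranged from 370 to 420 CPM with a median of 395, and the exercised livers from 327 to 364 with a median of 346. The groups did not overlap, although the means (395 ± 18.0 and 348 ± 14.2 CPM, SD, n = 6 each) differed by only 11.9%. The log2 fold change was -0.18 ± 0.0525 (SE), with an adjusted p of 0.00916 from edgeR's test. Counts also depend on transcript length, and the length assumed for Ghr was shorter after exercise, as described below.

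The STAT5 genes lie side by side on chromosome 11 and moved in opposite directions. Stat5a was at 9.58 to 11.7 CPM in the sedentary livers (median 10.4) and at 5.56 to 7.73 CPM after exercise (median 6.67). No exercised liver reached the lowest sedentary one, and the fall was 36.4% by the means (log2 fold change -0.65 ± 0.0925, adjusted p = 2.58e-05 from edgeR's test). Stat5b, the more abundant of the pair in liver, ranged from 27.5 to 41.2 CPM at rest (median 35.8) and from 37.2 to 49.4 CPM after exercise (median 40.7). Its groups overlapped, and the rise was small (log2 fold change 0.23 ± 0.0865, edgeR adjusted p = 0.0430).

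The Stat5b call was fragile. It was lost without Sedentary replicate 2, 3, 4 or 6 or Exercise replicate 2, 3, 4 or 6 (edgeR adjusted p from 0.0534 to 0.0954), and the adjusted p was 0.107 without Exercise replicates 1 and 3 together. Under library size alone it was 0.164, with Rplp0 as internal control 0.215, and with limma on FPKM 0.206. Per unit length, Stat5b stood at 2.56 ± 0.248 times Stat5a in the sedentary livers and at 4.71 ± 0.946 times in the exercised ones (ratio of deposited FPKM, SD, n = 6 each). The ratio ran from 2.13 to 2.80 at rest and from 3.79 to 6.44 after exercise, highest in Exercise replicate 3. The genes are near-identical in part, so reads between them could be divided in error. Stat5a also ends at 100885169 on the plus strand, past the end of Stat3 at 100885098 on the minus strand (mm10), and reads in that overlap cannot be assigned without strand.

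Cish, a STAT5-induced SOCS-family protein that damps cytokine receptor signaling, had the largest fall of the 10. It was at 12.0 to 25.7 CPM in the sedentary livers (median 18.9) and at 2.10 to 9.37 CPM after exercise (median 5.95). All 6 exercised livers lay under all 6 sedentary ones. The means were 19.4 ± 5.31 and 5.77 ± 2.52 CPM (SD, n = 6 each), a fall of 70.3%, with a log2 fold change of -1.75 ± 0.301 and an adjusted p of 0.000789 from edgeR's test. Leaving out any single liver kept the log2 fold change between -1.94 and -1.57.

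Socs2, the SOCS protein known for limiting GH action on body growth, pointed the same way as Cish but did not pass. Its levels ran from 1.67 to 28.8 CPM at rest (median 12.3) and from 1.6 to 10.3 CPM after exercise (median 3.16). Sedentary replicate 2 was as low as the lowest exercised livers, and Sedentary replicate 3 was the highest of all 12. The log2 fold change was -1.55 ± 0.606, with a 95% interval from -2.90 to -0.21 that excludes 0 before adjustment, and an edgeR adjusted p of 0.0622. The exact permutation test over the 924 relabellings gave p = 0.0693.

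The spread of Socs2 between livers of 1 group was among the widest in the table. The highest sedentary liver was 17.3 times the lowest, and the highest exercised liver 6.43 times the lowest. Its coefficient of variation was above that of 99.8% of genes in both groups. Without Sedentary replicate 2 the edgeR adjusted p was 0.0146, without Exercise replicate 4 it was 0.0352, and DESeq2 gave 0.0268. A fall of Socs2 of the size seen for Cish is thus neither called nor excluded by these 12 livers.

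Igf1, the hormone that carries much of the action of GH on growth, differed little between the groups. The sedentary livers ranged from 380 to 530 CPM (median 463) and the exercised from 391 to 487 CPM (median 397). The lowest liver of the 12 was Sedentary replicate 2, and every exercised liver lay within the sedentary range. The log2 fold change was -0.15 ± 0.0765, with a 95% interval from -0.31 to 0.0066 and an edgeR adjusted p of 0.115. It passed in edgeR's test without Sedentary replicate 2 (adjusted p = 0.0254) or Exercise replicate 4 (0.0437), and under library size alone (0.00698). With limma on the deposited FPKM it also passed (log2 fold change -0.25, limma adjusted p = 0.00830).

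Igfals, which encodes the acid-labile subunit that keeps IGF-1 in the large circulating complex, did fall. It was at 106 to 168 CPM in the sedentary livers (median 118) and at 66.6 to 87.4 CPM in the exercised livers (median 75.1). Even the highest exercised liver, replicate 4, stayed below the lowest sedentary one. The means of 127 ± 24 and 75.3 ± 7.04 CPM (SD, n = 6 each) differ by 40.8%, with a log2 fold change of -0.76 ± 0.105 and an adjusted p of 4.00e-05 from edgeR's test. The 95% interval of Igfals (-0.98 to -0.53) lies wholly below that of Igf1, although the difference between the 2 genes was not tested.

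The highest and lowest livers of a group were largely shared by these STAT5 target genes, while the full order of the livers was close in some pairs of genes and not in others. Sedentary replicate 3 was the highest and Sedentary replicate 2 the lowest sedentary liver in Cish, Socs2, Igf1 and Igfals alike. Exercise replicate 4 was the highest exercised liver in all 4, and Exercise replicate 6 the lowest in Cish, Socs2 and Igfals. These places were not particular to the 4 genes. Sedentary replicate 2 was also the lowest sedentary liver in Stat5b and Igfbp4, though the highest in Igfbp2. Exercise replicate 4 was also the highest exercised liver in Igfbp1. The 12 correlations among the 4 genes within the groups were computed after this order was seen, on log2(CPM + 0.5), each with an exact permutation test over 6 livers.

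Cish and Socs2 went together in the sedentary livers, with Pearson's r = 0.93 (exact p = 0.00278, adjusted over the 12 relations p = 0.0333) and Spearman's rho = 0.94 (exact p = 0.0167, adjusted p = 0.1). With the 2 livers farthest from the median of Cish left out, r was 0.90. In the exercised livers r was 0.81 (exact p = 0.05, adjusted p = 0.15) and rho 0.89 (exact p = 0.0333, adjusted p = 0.133), and r dropped to 0.32 without the 2 farthest livers. Socs2 and Igf1 gave r = 0.92 at rest (exact p = 0.0319, adjusted p = 0.128) with rho = 0.49 (exact p = 0.356, adjusted p = 0.388), a relation that rested on the 2 farthest livers, since r was -0.79 without them. After exercise the same pair gave r = 0.92 (exact p = 0.00833, adjusted p = 0.05) and rho = 0.94 (exact p = 0.0167, adjusted p = 0.1), and r = 0.52 without the 2 farthest livers. No other pair had an exact Pearson p under 0.05, and no Spearman p passed adjustment. At rest r also turned negative without the 2 farthest livers for Cish and Igf1 (0.74 to -0.86), Socs2 and Igfals (0.62 to -0.56), Cish and Igfals (0.58 to -0.19) and Igf1 and Igfals (0.72 to -0.0083), and after exercise for Cish and Igfals (0.80 to -0.18).

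**Figure D3:**
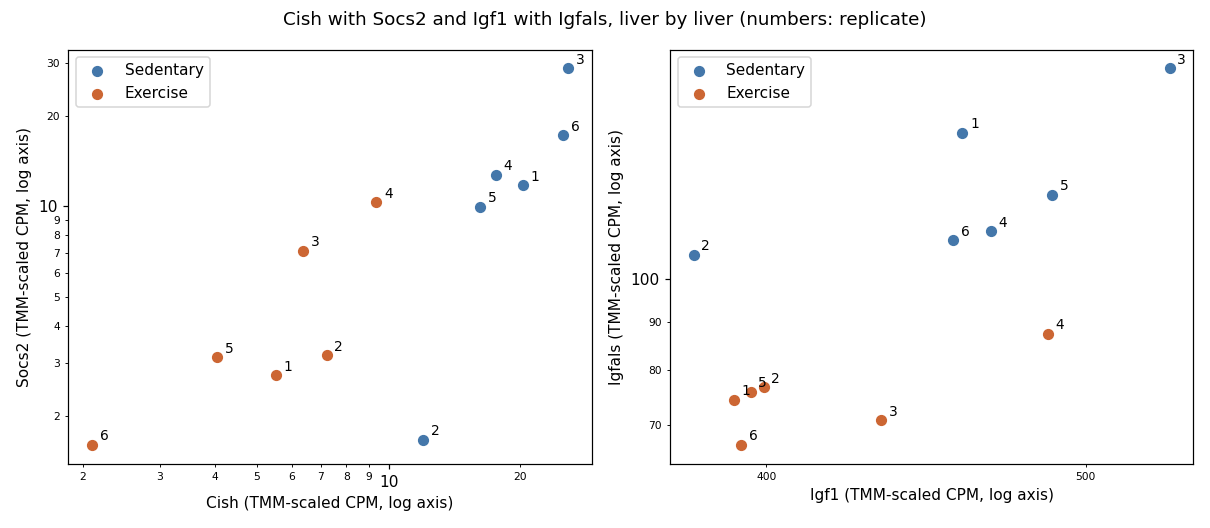
Cish against Socs2 (left) and Igf1 against Igfals (right), in TMM-scaled CPM on log axes, 1 point per liver with its replicate number. Sedentary replicate 3 is at the upper right of its group in both panels and Sedentary replicate 2 at its lower left; the exercised livers lie left of the sedentary ones in Cish and below them in Igfals.

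Over all 12 livers, with each group centred on its mean, Lbr (lamin B receptor) followed Igf1 most closely among 11536 genes (r = 0.95), ahead of Socs2 (r = 0.92) and Ly6g2 (r = 0.92). For Cish the closest were Cacfd1 (r = 0.87), Tfam, a factor of mitochondrial DNA transcription (r = 0.84), and Onecut1, a liver transcription factor (r = 0.83). The closest to Igfbp1 were Pigx (r = 0.95), Lpin2, a phosphatidate phosphatase (r = 0.90), and Lrrc8a, a volume-regulated anion channel subunit (r = 0.85). These are the highest of many values over 12 libraries and are given as a description.

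Igfbp1, whose protein binds IGF-1 and is released by the liver when insulin is low, rose most of the 10. The sedentary livers held 36.5 to 109 CPM (median 89.7) and the exercised livers 293 to 731 CPM (median 576). The lowest exercised liver, Exercise replicate 1, was still well above the highest sedentary one. The means were 81.2 ± 26.1 and 551 ± 150 CPM (SD, n = 6 each), a 6.78-fold difference, with a log2 fold change of 2.76 ± 0.292 and an edgeR adjusted p of 3.12e-05. Without any single liver the log2 fold change was 2.61 to 2.90, and without Exercise replicates 1 and 3 it was 2.87.

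Igfbp2, a binding protein made in quantity by the liver, fell. It was at 376 to 579 CPM in the sedentary livers (median 464) and at 302 to 436 CPM after exercise (median 352). The groups overlapped, and the log2 fold change was -0.36 ± 0.11 with an edgeR adjusted p of 0.0149. Igfbp4, an inhibitor of IGF action cleaved by the protease pappalysin, ranged from 1081 to 1360 CPM at rest (median 1202) and from 1327 to 1596 CPM after exercise (median 1343). Its log2 fold change was 0.19 ± 0.0684 (edgeR adjusted p = 0.0315). That call was lost without Sedentary replicate 2 (0.0726), 3 (0.0522) or 6 (0.0698), without Exercise replicate 3 (0.0689), without Exercise replicates 1 and 3 together (0.105), and under library size alone (0.193). The Igfbp4 call was also lost with Rplp0 as internal control (0.229) and with limma on FPKM (0.165).

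The balance of the binding protein transcripts shifted in every exercised liver. Per unit length, and as a share of the summed FPKM of Igfbp1 to Igfbp7, Igfbp1 made up 4.75% ± 1.58 in the sedentary livers and 25.2% ± 5.23 in the exercised ones (SD, n = 6 each). The share ran from 2.08% to 6.4% at rest and from 16.1% to 32.4% after exercise. Igfbp2 went from 39.0% ± 5.79 to 23.8% ± 2.6, and Igfbp4 held 50.8% ± 4.90 and 46.2% ± 3.94. The summed FPKM was 1207 ± 66.4 at rest and 1418 ± 127 after exercise, with Exercise replicate 1 (1191 FPKM) within the sedentary range. These shares follow from the changes of the single genes and were not tested.

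**Figure D4:**
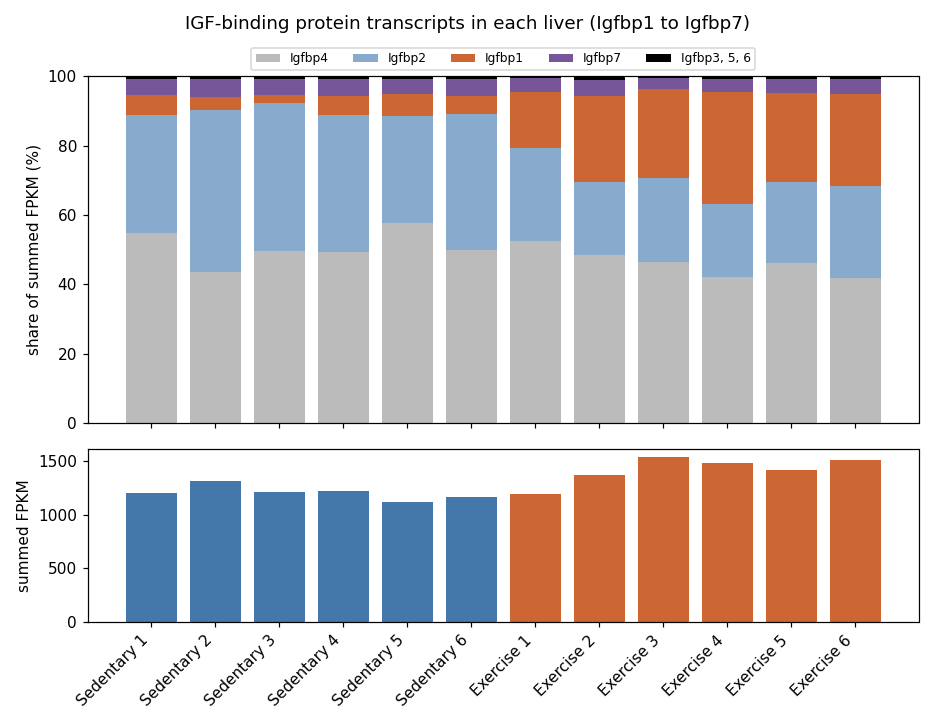
Share of each IGF-binding protein gene in the summed FPKM of Igfbp1 to Igfbp7 (upper, in percent) and the summed FPKM itself (lower), for each of the 12 livers. The Igfbp1 share (orange) is at most 6.4% in the sedentary and at least 16.1% in the exercised livers.

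Set against the hormone, Igfbp1 FPKM was 0.842 ± 0.266 times that of Igf1 in the sedentary livers and 6.23 ± 1.41 times after exercise (SD, n = 6 each). The ratio was lowest at rest in Sedentary replicate 3 (0.327), which had the highest Igf1 and the lowest Igfbp1 of its group. Among the exercised livers it ran from 3.56 in Exercise replicate 1 to 7.35 in Exercise replicate 6.

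The order of the 10 genes by FPKM at rest was Igfbp4 (610 ± 34.4), Igfbp2 (473 ± 93.4), Ghr (172 ± 5.68), Igf1 (68.4 ± 5.68), Igfals (62.7 ± 11.3), Igfbp1 (56.9 ± 17.5), Stat5b (7.46 ± 0.780), Cish (6.67 ± 1.82), Socs2 (6.22 ± 4.12) and Stat5a (2.91 ± 0.167). Igfbp4 and Igfbp2 overlapped between livers, as did Igf1, Igfals and Igfbp1 with each other, and Stat5b, Cish and Socs2. After exercise Igfbp1 (361 ± 95.6 FPKM) stood second, overlapping Igfbp2 (337 ± 41.8 FPKM), and Igf1 (57.6 ± 4.86 FPKM) was above Igfals (34.9 ± 3.70 FPKM) in all livers. Cish (1.85 ± 0.810 FPKM) and Socs2 (2.02 ± 1.39 FPKM) then lay at the level of Stat5a (1.76 ± 0.243 FPKM).

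The deposited FPKM and counts together give the effective transcript length that was assumed for a gene in each library, which moves when the balance of its transcripts moves. For Ghr, which in mice gives both the full receptor and, by alternative splicing, a soluble GH-binding protein, this length was 2325 to 2443 bases in the sedentary livers and 2143 to 2294 bases in the exercised ones. The groups did not overlap (means 2372 ± 50.1 and 2225 ± 56.3 bases, SD, n = 6 each; exact permutation p = 0.00216, the smallest it can give). Across 11482 genes, of which 0.845% passed, the limma adjusted p for Ghr was 0.0525, and 0 of the 10 genes passed. GENCODE lists 10 Ghr transcripts of 472 to 4175 bases, and which of them differed was not tested. Without Exercise replicate 4 the limma adjusted p for Ghr was 0.0487, and without Exercise replicates 1 and 3 it was 0.235. Without Sedentary replicate 6, Igfals passed (0.0272) by a difference of 0.0061 on the log2 scale.

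Of 17 other components of GH receptor signaling, 16 could be tested, and 4 were higher and 2 lower after exercise. The kinase gene Jak2 itself was at 10.9 ± 1.86 CPM at rest and 13.1 ± 1.90 CPM after exercise (log2 fold change 0.27 ± 0.115), which did not pass (edgeR adjusted p = 0.0629). It did pass with Sedentary replicate 5 (0.0199) or with Exercise replicate 4 (0.0409) or 5 (0.0351) left out. The adaptor gene Sh2b1, whose protein binds JAK2, rose by 0.23 on the log2 scale (edgeR adjusted p = 0.00224). That call was lost under library size alone (0.121) and with limma on FPKM (0.224). Socs7 rose from 8.37 ± 1.07 to 13 ± 1.8 CPM (log2 fold change 0.64, edgeR adjusted p = 7.09e-05).

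Stat3, which carries IL-6 signals in liver, rose (log2 fold change 0.54, edgeR adjusted p = 0.00451). The median over the 16 genes was -0.016, close to that of all genes.

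Among 21 other genes of the IGF axis, 15 could be tested, with 3 higher and 1 lower. The receptor substrates Irs1 and Irs2, shared by the insulin and IGF-1 receptors, rose most, Irs1 from 14.3 ± 3.08 to 30.0 ± 4.94 CPM (log2 fold change 1.07, edgeR adjusted p = 6.24e-05) and Irs2 from 12.5 ± 3.87 to 38.0 ± 6.88 CPM (1.61, adjusted p = 9.06e-05). Insr, the insulin receptor gene, rose by 0.18 on the log2 scale (edgeR adjusted p = 0.0268), a call lost without Sedentary replicate 1 (0.0562), 2 (0.0581) or 3 (0.0680) and without Exercise replicates 1 and 3 (0.0573). The Insr call was also lost under library size alone (0.280), with Rplp0 as internal control (0.184) and with limma on FPKM (0.283). Grb14, an adaptor that inhibits the insulin receptor, fell (log2 fold change -0.36, edgeR adjusted p = 0.000194). The median log2 fold change over the 15 genes was 0.18.

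The hormone receptor Igf1r was scarce, at 1.52 ± 0.423 CPM at rest and 2.18 ± 0.566 CPM after exercise (log2 fold change 0.52, edgeR adjusted p = 0.0552). It passed with Sedentary replicate 6 (0.0245) or with Exercise replicate 1 (0.0196) or 4 (0.0423) left out, and without Exercise replicates 1 and 3 (0.0470). Igfbp3, the main carrier of IGF-1 in blood, which non-parenchymal liver cells make, was at 15.0 ± 3.53 and 18.4 ± 2.53 CPM (log2 fold change 0.29, edgeR adjusted p = 0.112). It passed without Sedentary replicate 2 (0.0354) or 6 (0.0415). Igf2 had 72 counts in all 12 livers and was not tested.

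The pulsed GH secretion of males keeps a set of liver genes higher in males than in females. Of 23 such genes 21 could be tested, and 5 fell while 1 rose. Hsd3b5, a hydroxysteroid dehydrogenase of male mouse liver, went from 37.3 ± 25.2 to 7.61 ± 3.57 CPM (log2 fold change -2.29 ± 0.532, edgeR adjusted p = 0.00573), with no overlap between the groups. The Hsd3b5 call was lost with replicate number as a block in edgeR's test (adjusted p = 0.0700). Nudt7, a peroxisomal CoA hydrolase, fell from 371 ± 113 to 128 ± 12.6 CPM (-1.54, edgeR adjusted p = 4.24e-05) and Susd4 from 26.1 ± 3.06 to 14.5 ± 1.6 CPM (-0.84, adjusted p = 9.34e-07). Bcl6, a repressor that STAT5 itself represses, rose from 18.3 ± 1.77 to 28.8 ± 8.55 CPM (0.65, edgeR adjusted p = 0.00724).

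Other male-biased genes of high level gave no call. The major urinary protein gene Mup3 was at 6191 ± 747 and 5977 ± 477 CPM (log2 fold change -0.051, edgeR adjusted p = 0.656) and Cyp2d9 at 1065 ± 64.2 and 981 ± 130 CPM (-0.12, adjusted p = 0.254), both named after their values were seen. Major urinary protein genes share reads with close copies and are uncertain one by one. The median over the 21 genes was -0.27. Without Exercise replicates 1 and 3, 3 of the 21 fell, since Cyp7b1 (0.0914) and Cyp4a12b (0.0757) no longer passed.

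Of 16 female-biased GH-dependent genes, 9 had enough counts in these male livers to test. The acyl-CoA thioesterase gene Acot3 fell from 33.4 ± 9.09 to 8.94 ± 3.16 CPM (log2 fold change -1.91, edgeR adjusted p = 9.33e-05), and 1 gene rose, Sult1e1 (2.06, adjusted p = 0.00108), at a mean under 1 CPM over the 12 livers. The other 7 did not pass. These counts stand beside the background of 21.1% higher and 21.3% lower over all genes, and no list was tested as a whole.

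**Figure D5:**
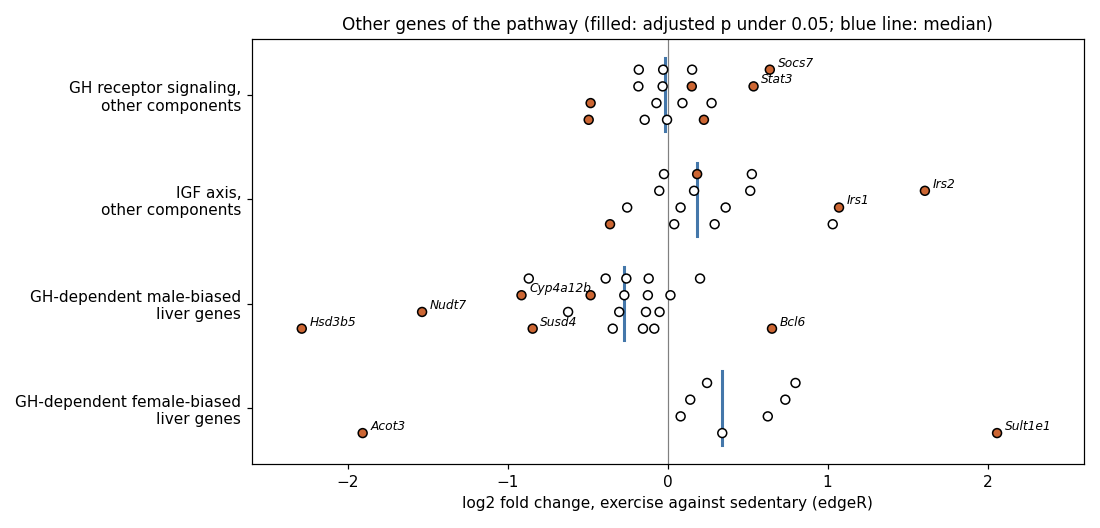
Log2 fold change (exercise against sedentary, edgeR) of each tested gene of the 4 lists, filled where the adjusted p over all genes was under 0.05, with the list median as a blue line. The medians are -0.016 for GH receptor signaling, 0.18 for the IGF axis, -0.27 for the male-biased and 0.34 for the female-biased genes.

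In whole liver, fewer cells of a type and less RNA per cell cannot be told apart. Of the hepatocyte markers, which mark the main source of Igf1, Igfals and Igfbp1 transcripts, 2 rose (Alb and Tat) and 1 fell (Fabp1) among 8. Kupffer cell markers (0 of 7 called, summing to 69.2 to 115 CPM at rest and 82.5 to 129 CPM after exercise) and cholangiocyte markers (0 of 5 called) gave no call. Of 7 endothelial markers 3 rose (Pecam1, Lyve1 and Oit3) and 1 fell (Kdr), their sum running from 131 to 179 CPM at rest and from 151 to 230 CPM after exercise. Of 7 stellate cell and fibroblast markers 2 fell (Lrat and Des). The part of these cells in the values of Igfbp3 or Igfbp4 was not tested. Of 6 skeletal muscle markers 1 was counted enough to test, and 0 of 4 adipocyte markers. The untested muscle genes Acta1, Ckm, Myh4 and Myh1 summed to 20 to 42 counts in each sedentary liver, 10 in Exercise replicate 1 and 0 to 1 in the other 5 exercised livers, so at a trace level they separated the groups, with Exercise replicate 1 nearest to the sedentary livers as for Myh6. Their part in the results was not tested.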

How the data were processed

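RNA was extracted with TRI Reagent, and libraries were made with the BGI Optimal Dual-mode mRNA-Seq kit, whose strand setting is not given in the sources used here. The submitters' processing notes name Bowtie2 2.3.4.3, RSEM 1.3.1 and the build mm10, and the annotation is not given in the sources used here. The authors deposited an RSEM estimated count, not scaled between libraries, for each of 17432 genes (31.3% not whole). The authors also deposited FPKM values, scaled for transcript length and depth.

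Counts were rounded and tested with edgeR 4.0.16 in R 4.3.3 (filterByExpr with a minimum count of 10, TMM, robust quasi-likelihood fit, exercise against sedentary), adjusted over 12344 genes. The log2 of FPKM per count, centred in each library, was tested with limma 3.58.1 in 11482 genes. Single values had an exact permutation test on log2(CPM + 0.5). The scripts were checked on simulated data. Alternatives included DESeq2 1.42.0, limma-voom, limma on log2(FPKM + 0.1), other scalings and filters, and leaving out livers. Gene coordinates are from GENCODE vM21. Groups came from the labels.

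The 10 genes, the lists and the tests were chosen with earlier results of these data known. Genes are named by a rule: all 10, then Jak2, Igf1r, Igf2 and Igfbp3, up to 4 called genes of each list with a mean of at least 1 CPM and the smallest adjusted p, markers by list, and the 3 genes that follow Igfbp1, Igf1 and Cish most closely within groups. A gene that the rule names is not reported here. Genes named outside this rule, and the correlations among Cish, Socs2, Igf1 and Igfals, were picked with their values in view.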

Additional observations from a re-analysis of the deposited data

Results flagged for a closer look

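Of the groups checked, 3 of 52 (6 livers each) had a value farther from the rest than Dixon's 95% limit for the gap over the range, where chance gives about 2.6 (1 in 20). All belonged to Exercise replicate 3. Igfbp4 was high there, at 1596 CPM against 1355 CPM in the liver nearest to it (gap over range 0.896). Stat3 was high, at 152 CPM against 112 CPM (0.809). Hsd3b5 was low, at 0.869 CPM against 7.22 CPM (0.643). Without that liver the adjusted p of edgeR's test for Igfbp4 was 0.0689.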

How the results depend on the processing

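No named gene, and not the Cish and Socs2 correlation under other scalings, changed sign: of these 763 values under an alternative, 669 stayed on their side of the threshold, 71 lost it and 23 gained it. Of 393 counts of calls, 362 stayed within 1.5 times. Calls for Igfbp1, Cish, Igfals, Stat5a, Igfbp2 and Ghr held under every alternative run at a threshold of 0.05. For Ghr, no run took both transcript length and TMM scaling into account. Limma on log2(FPKM + 0.1) gave -0.19 for Ghr, where the median of all genes was -0.093. Of the 10 genes, 5 passed at an adjusted p under 0.01, of which 1 was higher, where 1832 of all 12344 genes were higher and 1752 lower. Likewise 1 was called higher under library size alone, with Rplp0 as internal control, with limma on log2(FPKM + 0.1), and without Exercise replicates 1 and 3. Library size alone moved the median of all genes by -0.098, and 32.1% of its calls were higher, against 49.8% (31.4% for FPKM).

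In GH receptor signaling 2 were higher under library size alone and with FPKM, and 1 was lower at 0.01. Of the male-biased genes 3 fell at 0.01 and without Exercise replicates 1 and 3. With at least 10 counts in every liver 1 female-biased gene was called and 0 higher, and DESeq2 called 2 higher. Without centring, a shift common to a whole library enters FPKM per count, and 6 of the 10 genes passed (Ghr 0.11, the other 5 at most 0.04 on the log2 scale). Igfbp1 was among them (0.020), although its mean effective length was 1471 bases in both groups. The share of all genes that passed without centring was not taken, so this count says nothing particular about the 10 genes.

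Leaving out single livers gave 1 to 3 of the 10 genes higher (1 without Sedentary replicate 2, 3 or 6 or Exercise replicate 3), 2 to 5 of the IGF axis higher (5 without Sedentary replicate 6), 3 to 6 male-biased genes lower (3 without Sedentary replicate 3 or 6 or Exercise replicate 2, 3 or 5), 2 to 4 female-biased genes called with 1 to 3 higher (4 and 3 without Sedentary replicate 5), and 0 to 1 of the 10 in FPKM per count. Over all genes tested in these runs (12399 to 12444), 2366 to 2670 were higher and 2290 to 2571 lower. The cause of these moves was not tested.

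Replicate numbers did not pair the livers: same-numbered livers correlated at -0.099 to 0.16 in their deviations from the group means, and 2 of 6 correlated best with their own number. With the replicate block 8 of the 10 genes were called, 5 genes of the IGF axis were higher and 3 male-biased genes were lower. Over all 12344 genes that block gave 2490 higher and 2466 lower. Depth limits Igf1r, Igf2 and Sult1e1, which had few counts.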

Other observations

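Some GH-dependent genes spread widely between livers of 1 group. Cyp2b9, a cytochrome P450 more active in female liver, ran from 1.17 to 44.6 CPM in the sedentary livers and from 9.09 to 54.4 CPM after exercise, and Cyp2a4 from 1.04 to 15.7 CPM and from 3.53 to 26.2 CPM. Cyp4a12a, a fatty acid hydroxylase of male liver, ran from 13 to 167 CPM among the exercised livers and from 64.1 to 148 CPM at rest, and its reads may be shared with Cyp4a12b. None of the 3 was called, and they were picked after their values were seen.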
